A study of Rattus norvegicus with 12 samples.

Results

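Tight junction and cell polarity genes were described in ELT3-245, a rapamycin-resistant rat cell line, and in ELT3, the line it came from. Of 38 genes listed from textbook knowledge of tight junctions and polarity complexes, 36 had a probe set named with their symbol on the array, out of 23188 probe sets, of which 15049 had 1 symbol. The other 2, Patj and Cgn, had no named probe set and were not measured here. Each of the 36 genes had 1 probe set, and its chromosome matched that of the rat RefSeq annotation in 36 of 36 cases.

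ELT3 cells were derived from a uterine leiomyoma of an Eker rat and have no functional Tsc2. ELT3-245 was grown from 1 ELT3 xenograft tumour of 1 mouse that had not responded to rapamycin, so the resistant state is represented by 1 line, and both lines lack tuberin. The 4 groups were ELT3-245 with rapamycin, ELT3-245 with DMSO, ELT3 with rapamycin and ELT3 with DMSO, each with 3 arrays from 3 culture plates, with 20 nM rapamycin or the DMSO vehicle for 24 hours. The dose is the one stated as final concentration, which the stock and volumes in the sample labels do not give. Nothing states that the plates came from separate experiments. The study excepted its array work from the repeats it reported for its other in vitro experiments. The p-values therefore measure only the spread between these samples.

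Tight junctions close the space between neighbouring epithelial or endothelial cells. Claudins form the strands, occludin and the other MARVEL proteins and the junctional adhesion molecules (JAMs) accompany them in the membrane, and scaffolds of the ZO and MAGI families tie them to actin. The PAR and Crumbs complexes place the junction between the apical and basolateral membrane, and mesenchymal and smooth muscle cells, which have no such belt, still use several of these proteins at other contacts.

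Signals were log2 values from RMA, on which a difference of 1 is a 2-fold change, and probe sets of different genes cannot be compared in level. The array medians lay between 6.69 and 6.82 and served as a guide to dim signals, since the table has no detection calls. Arrays of 1 group correlated at 0.9928 to 0.9966 over all probe sets. Of the 36 genes, 19 lay under the array median on all 12 arrays, as did 44.2% of all probe sets. A gene was called changed at an adjusted p under 0.05 and at least 1.5-fold, with limma and Benjamini-Hochberg adjustment over all probe sets. Of the 36 genes, 11 were called in at least 1 of 5 comparisons and 25 in none, and both counts come from a list chosen with earlier results of these arrays known.

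The smooth muscle markers Acta2, Des and Tagln were bright in every group, with mean log2 signals from 11.69 to 16.73. Myh11, the smooth muscle myosin heavy chain, and Myocd were under the array median on all 12 arrays, the only 2 of 10 smooth muscle markers. Cnn1 was under the array median on 8 of the 12. The epithelial markers Epcam and Cdh1, which encodes E-cadherin, were also under it on all 12 arrays, as were 10 of 14 epithelial markers measured. Transcripts of the defining epithelial markers were thus dim in both lines. Some other epithelial markers were bright in ELT3 and are given beside the line difference. Of 8 fibroblast markers, 0 were under the array median on all 12 arrays. Col1a1, Col1a2, Col3a1 and Thy1 were bright in every group, while Lum and Fap averaged under the array medians in ELT3.

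The promoters of 4 genes with large line differences are shown first, since Ocln, F11r, Cldn1 and Jam2 were each lower in ELT3-245 in both treatments. Windows of 300 bases (250 before the annotated start and 50 after it) came from RefSeq on GRCr8, which is not necessarily the build behind the array, and were given for 29 of the 36 genes. Capitals mark CAGGTG, the E-box bound by Snail, Slug and ZEB repressors, and GGGCGG, the GC box bound by Sp1, on either strand. The windows were chr2:33441149-33441448 on the minus strand for Ocln, and chr13:86405979-86406278, chr11:87926126-87926425 and chr11:37317310-37317609 on the plus strand for F11r, Cldn1 and Jam2.
Ocln: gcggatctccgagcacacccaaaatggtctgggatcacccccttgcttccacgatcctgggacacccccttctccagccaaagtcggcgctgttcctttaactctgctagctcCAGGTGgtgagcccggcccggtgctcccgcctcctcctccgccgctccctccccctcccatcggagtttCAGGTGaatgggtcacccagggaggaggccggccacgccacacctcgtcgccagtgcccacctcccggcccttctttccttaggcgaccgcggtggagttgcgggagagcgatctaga
F11r: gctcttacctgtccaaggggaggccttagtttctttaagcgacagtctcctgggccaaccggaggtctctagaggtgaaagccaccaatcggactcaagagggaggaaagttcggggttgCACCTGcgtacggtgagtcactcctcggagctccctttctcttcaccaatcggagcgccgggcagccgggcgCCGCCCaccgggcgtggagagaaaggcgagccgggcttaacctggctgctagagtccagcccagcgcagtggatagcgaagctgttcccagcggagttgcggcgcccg
Cldn1: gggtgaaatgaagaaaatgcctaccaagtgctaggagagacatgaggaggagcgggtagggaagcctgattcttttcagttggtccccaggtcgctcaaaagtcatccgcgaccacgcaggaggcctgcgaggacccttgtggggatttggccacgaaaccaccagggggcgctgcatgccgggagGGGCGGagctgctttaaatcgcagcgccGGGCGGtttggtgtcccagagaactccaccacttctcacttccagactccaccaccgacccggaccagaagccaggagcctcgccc
Jam2: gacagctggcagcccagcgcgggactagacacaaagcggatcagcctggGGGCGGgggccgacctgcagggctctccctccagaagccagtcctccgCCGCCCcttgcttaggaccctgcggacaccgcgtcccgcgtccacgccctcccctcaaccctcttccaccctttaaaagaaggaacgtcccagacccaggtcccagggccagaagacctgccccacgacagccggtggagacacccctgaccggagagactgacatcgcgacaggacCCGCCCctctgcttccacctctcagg

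Ocln had 2 E-box matches, 137 and 68 bases before the start, and F11r had 1, as CACCTG, 130 bases before it. F11r also had a GC box 58 bases before the start. Cldn1 had GC boxes 64 and 36 bases before its start and no E-box match, and Jam2 had GC boxes 201 and 153 bases before and 24 bases after its start and no E-box match. No E-box overlapped a GC box in these windows. E-box matches were in 2 of the 9 windows of genes lower in ELT3-245 (22.2%), 7 of the 19 windows of genes never called (36.8%) and 18.8% of all 33469 windows. GC boxes were in 5 of those 9 (55.6%), 15 of those 19 (78.9%) and 33.1% of all windows. A match describes only these letters. The windows lie at annotated starts, and whether these cells use those starts was not tested, so some windows may not be promoters here.

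The first comparison asked how the resistant line differed from its parent without drug. In DMSO, 7 of the 36 genes were lower in ELT3-245 than in ELT3 and 2 were higher, against a background of 7.56% of all probe sets called lower and 7.3% called higher (14.9% in either direction). With rapamycin on both lines, 9 genes were lower and 2 were higher, against 7.92% and 8.86% of all probe sets (16.8% in either direction). The 7 genes lower in DMSO were Ocln, Cldn1, F11r, Jam2, Tjp1, Pard3 and Magi1, and Pals1 and Cldn22 were called lower in rapamycin beside them. Jam3 and Cldn12 were higher in both treatments. The median log2 difference of the 36 genes was -0.14 in DMSO, against 0.01 over all probe sets, and -0.19 in rapamycin, against -0.02. In DMSO, 9 genes were lower on every ELT3-245 array than on every ELT3 array and 3 were higher, against 17.5% and 19.3% of all probe sets, and in rapamycin 15 were lower and 3 higher, against 17.7% and 20% of all probe sets. The large differences were thus carried by a few genes. Lower signals on every ELT3-245 array in rapamycin were more frequent in the list than over all probe sets. They included genes that were not called, such as Prkci, Ybx3 and Pard6b. The comparisons in DMSO and in rapamycin do not share arrays with each other, but each shares arrays with the rapamycin responses given further on.

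Among the MARVEL proteins, Ocln (chromosome 2) encodes occludin, a membrane protein of the tight junction strand. In DMSO, the log2 signals of Ocln were 5.72, 6.47 and 5.75 on the ELT3-245 arrays, against 11.10, 11.08 and 11.13 on the ELT3 arrays. With rapamycin, these signals were 5.86, 5.93 and 5.37 in ELT3-245, against 12.84, 13.02 and 12.67 in ELT3. All 6 ELT3-245 arrays lay under the array median and all 6 ELT3 arrays far above it, with no overlap. The log2 difference in DMSO was -5.12 (95% interval -5.56 to -4.68), or 34.8-fold (adjusted p = 1.97e-09 from limma). In rapamycin it was -7.12 (-7.56 to -6.68), or 139-fold (adjusted p = 1.20e-10). The signal in ELT3-245 was in the dim range, so these folds depend on the floor of the probe set.

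Its gene lies next to Marveld2 on chromosome 2, with 0 annotated protein-coding genes between them on GRCr8. Marveld2 encodes tricellulin, which seals the points where 3 cells meet, and was under the array median on all 12 arrays, with group means from 4.19 to 4.51. Marveld3, another MARVEL protein, had group means from 6.73 to 7.13, near the array median. Neither was called in any comparison, and their log2 differences between the lines lay between -0.21 and 0.21.

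Among the 19 measured claudins, 3 were called and 16 were not. Cldn1 (chromosome 11) encodes claudin 1, a barrier-forming claudin of the skin and many epithelia. In DMSO, Cldn1 signals on the log2 scale were 9.50, 9.49 and 9.65 in ELT3-245, against 14.13, 14.02 and 14.20 in ELT3. In rapamycin, Cldn1 stood at 9.80, 9.86 and 9.82 in ELT3-245, against 14.90, 14.66 and 15.02 in ELT3. The groups did not overlap, and unlike Ocln the signal in ELT3-245 stayed well above the array median on every array. The log2 difference was -4.57 in DMSO (95% interval -4.82 to -4.32), or 23.8-fold (adjusted p = 5.26e-11). It was -5.04 in rapamycin (-5.28 to -4.79), or 32.8-fold (adjusted p = 3.70e-11). Cldn16, the claudin of magnesium reabsorption in the kidney, is its direct neighbour on chromosome 11 and was under the array median on all 12 arrays, with group means from 4.96 to 5.42.

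Cldn12 (chromosome 4), a claudin that lacks the usual tail for binding ZO scaffolds, ran the other way. In DMSO, Cldn12 had log2 signals of 11.69, 11.52 and 11.51 in ELT3-245, against 10.41, 10.74 and 10.95 in ELT3. In rapamycin, it had 11.79, 11.59 and 11.60 in ELT3-245, against 10.82, 10.36 and 10.44 in ELT3. It was the brighter in ELT3-245 on every array, without overlap in either treatment, and was far above the array median in both lines. The log2 difference was 0.87 in DMSO (95% interval 0.53 to 1.22), or 1.83-fold (adjusted p = 0.00137), and 1.12 in rapamycin (0.78 to 1.46), or 2.18-fold (adjusted p = 0.000175).

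Cldn22 (chromosome 16), a little-studied claudin, was under the array median on all 12 arrays. In rapamycin, its log2 signals were 5.70, 5.72 and 5.66 in ELT3-245, against 6.06, 6.31 and 6.48 in ELT3. In DMSO, they were 5.56, 6.18 and 6.04 in ELT3-245, against 6.22, 6.18 and 5.82 in ELT3. The groups were apart in rapamycin and overlapped in DMSO. The log2 difference in rapamycin was -0.59 (95% interval -0.96 to -0.21; adjusted p = 0.0248), just past 1.5-fold, and in DMSO it was -0.15 (adjusted p = 0.623). The call in rapamycin was lost without any 1 of the 3 ELT3-245 rapamycin arrays or of ELT3 rapamycin replicates 2 and 3 (adjusted p = 0.0579 to 0.0941).

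The 16 claudins never called were Cldn2 to Cldn11, Cldn14, Cldn15, Cldn16, Cldn18, Cldn19 and Cldn23. They include the pore-forming Cldn2, Cldn10 and Cldn15, the endothelial Cldn5, and the epithelial Cldn3, Cldn4 and Cldn7. Their group means lay between 3.48 and 6.79, at or under the array medians. Of all 19 claudins, 15 were under the array median on all 12 arrays. Of the 16, 9 had a 95% interval within 1.5-fold in both directions in DMSO and 11 in rapamycin, and the intervals of the others reached past that size. Cldn7 was called without ELT3 DMSO replicate 1 (0.83, adjusted p = 0.0334), beside a main value that missed the threshold. The largest difference between the lines was that of Cldn7 in DMSO, at 0.56 (95% interval 0.00 to 1.11; adjusted p = 0.153).

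All 3 JAMs, immunoglobulin-domain adhesion proteins, differed between the lines. F11r (chromosome 13) encodes JAM-A, which helps to recruit the PAR complex to early contacts. In DMSO, F11r had log2 signals of 6.05, 5.28 and 5.83 in ELT3-245, against 9.37, 9.62 and 10.13 in ELT3. With rapamycin, F11r had 5.26, 5.67 and 6.84 in ELT3-245, against 11.59, 11.70 and 11.58 in ELT3. The lines did not overlap, and in ELT3-245 only rapamycin replicate 3 lay above the array medians. The log2 difference was -3.99 in DMSO (95% interval -4.74 to -3.24), or 15.9-fold (adjusted p = 2.58e-06), and -5.70 in rapamycin (-6.45 to -4.95), or 52.1-fold (adjusted p = 8.81e-08). As for Ocln, these folds depend on the floor of the probe set, since 5 of the 6 ELT3-245 arrays were in the dim range.

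Jam2 (chromosome 11) encodes JAM-B. Its log2 signals in DMSO were 5.70, 4.73 and 5.46 in ELT3-245, against 7.46, 7.37 and 7.37 in ELT3. Those in rapamycin were 5.51, 5.87 and 5.62 in ELT3-245, against 8.25, 8.32 and 8.30 in ELT3. The ELT3-245 arrays were all under the array median and the ELT3 arrays all above it. For Jam2 the log2 difference was -2.10 in DMSO (95% interval -2.54 to -1.67; adjusted p = 6.42e-06) and -2.62 in rapamycin (-3.06 to -2.19; adjusted p = 8.01e-07).

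Jam3 (chromosome 8) encodes JAM-C, the partner that JAM-B binds on neighbouring cells. Its log2 signals in DMSO were 9.16, 9.51 and 8.92 in ELT3-245, against 6.99, 7.14 and 7.74 in ELT3. With rapamycin, Jam3 had 9.05, 8.83 and 8.68 in ELT3-245, against 7.70, 7.43 and 7.47 in ELT3. Jam3 was higher in ELT3-245 on every array, opposite to F11r and Jam2. Between the lines, the log2 difference was 1.91 in DMSO (95% interval 1.47 to 2.35), or 3.76-fold (adjusted p = 1.71e-05), and 1.32 in rapamycin (0.88 to 1.76; adjusted p = 0.000362).

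**Figure D1:**
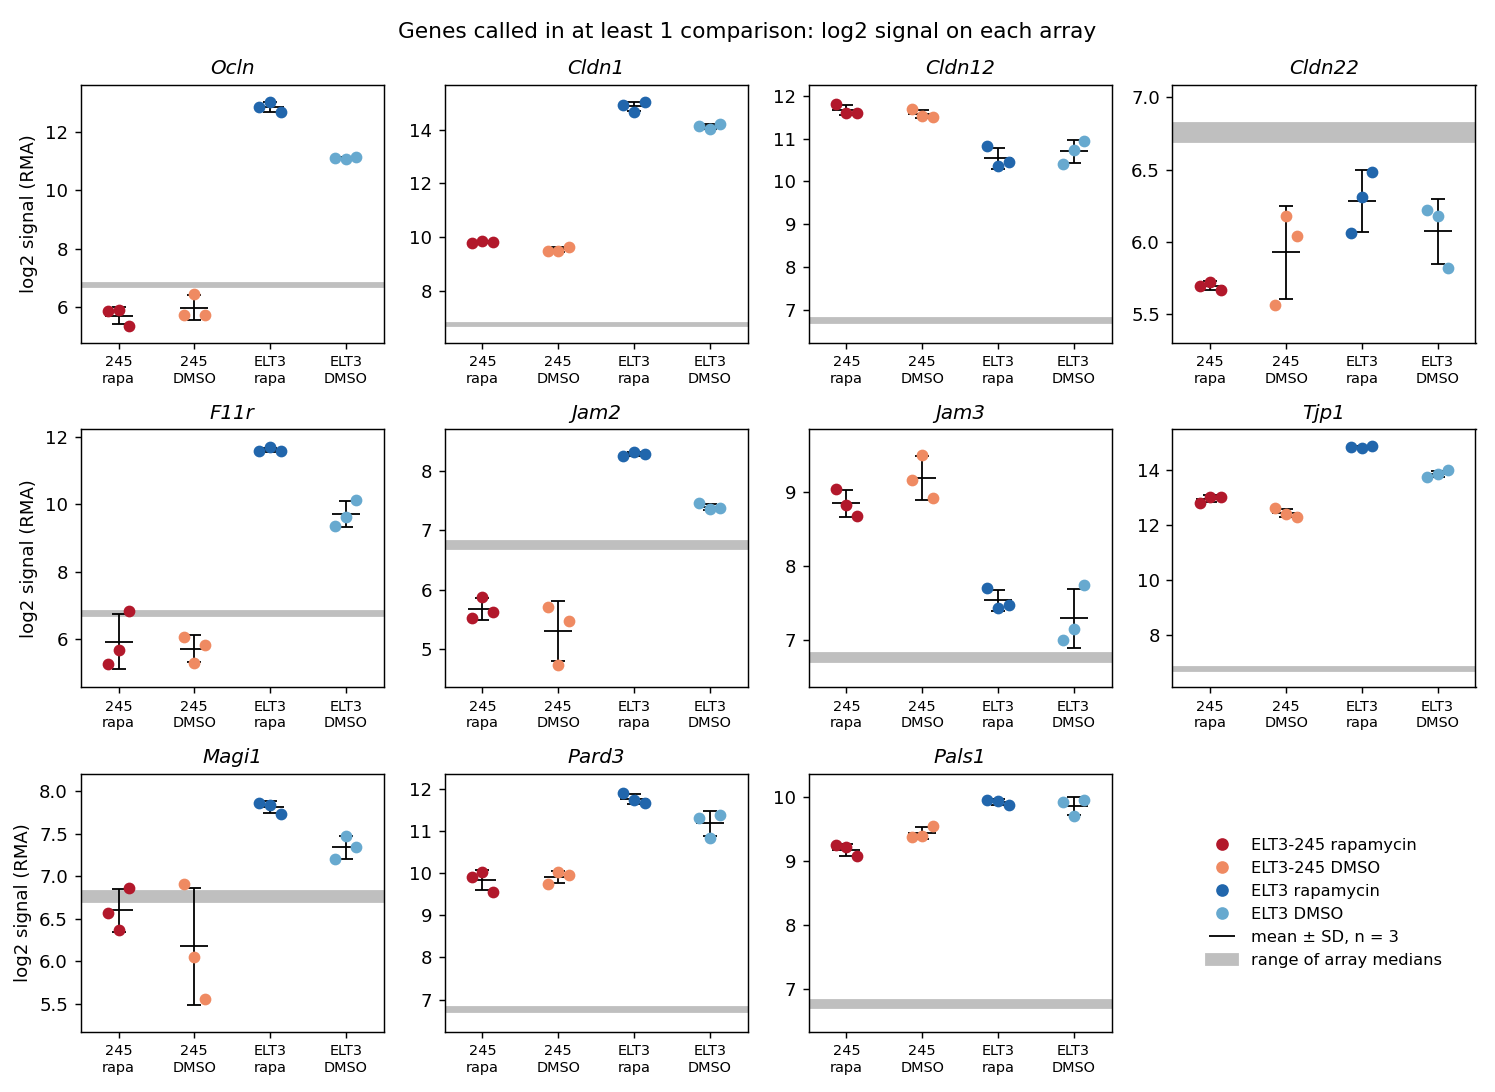
Log2 RMA signal (y axis) of the 11 genes called in at least 1 comparison, on each of the 12 arrays. Points are arrays, black bars are the mean ± SD of 3 arrays, the x axis gives the 4 groups (245 is ELT3-245, rapa is rapamycin), and the grey band is the range of array medians, 6.69 to 6.82. Ocln and Jam2 lay under the band on all 6 ELT3-245 arrays and F11r on 5 of 6, while Cldn1 and Tjp1 stayed above it, and Jam3 and Cldn12 were higher in ELT3-245.

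Of the 5 scaffold genes measured, 2 were lower in ELT3-245. Tjp1 (chromosome 1) encodes ZO-1, which links claudins and occludin to actin and is also found at contacts of mesenchymal cells. In DMSO, its log2 signals were 12.60, 12.38 and 12.28 in ELT3-245, against 13.75, 13.84 and 13.97 in ELT3. In rapamycin, Tjp1 had 12.78, 12.99 and 13.02 in ELT3-245, against 14.82, 14.78 and 14.85 in ELT3. It was bright in both lines and the groups did not overlap. The 95% interval of the log2 difference was -1.68 to -1.18 in DMSO (adjusted p = 1.56e-06) and -2.14 to -1.63 in rapamycin (adjusted p = 1.14e-07).

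Magi1 (chromosome 4) encodes a membrane-associated guanylate kinase of the junction. In DMSO, Magi1 had log2 signals of 6.92, 6.05 and 5.56 in ELT3-245, against 7.21, 7.48 and 7.35 in ELT3. In rapamycin, Magi1 had 6.57, 6.37 and 6.86 in ELT3-245, against 7.87, 7.85 and 7.74 in ELT3. The groups were apart, though the ELT3-245 DMSO arrays had a wide spread (SD 0.68) and straddled the array medians. The log2 difference was -1.17 in DMSO (95% interval -1.74 to -0.59; adjusted p = 0.00649) and -1.22 in rapamycin (-1.79 to -0.64; adjusted p = 0.00431). The other 3 scaffolds, Tjp3 (ZO-3), Cgnl1 (paracingulin) and Magi3, were not called, with Cgnl1 the farthest from 0 at -0.56 in DMSO (95% interval -1.02 to -0.10; adjusted p = 0.0833). Without ELT3 DMSO replicate 1, Cgnl1 was called at -0.77 (adjusted p = 0.0222).

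The 5 polarity genes gave 1 call in DMSO and 2 in rapamycin, all lower in ELT3-245. Pard3 (chromosome 19) encodes PAR-3, which brings PAR-6 and atypical protein kinase C to the junction. In DMSO, Pard3 had log2 signals of 9.76, 10.03 and 9.97 in ELT3-245, against 11.33, 10.84 and 11.39 in ELT3. In rapamycin, Pard3 had 9.91, 10.03 and 9.56 in ELT3-245, against 11.90, 11.75 and 11.67 in ELT3. All arrays were above the array median, and every ELT3-245 array was under every ELT3 array. For Pard3 the log2 difference was -1.27 in DMSO (95% interval -1.63 to -0.90), or 2.41-fold (adjusted p = 0.000111), and -1.94 in rapamycin (-2.30 to -1.57), or 3.83-fold (adjusted p = 2.50e-06).

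Pals1 (chromosome 6) encodes the scaffold that joins Crumbs to the other proteins of its complex. In rapamycin, its log2 signals were 9.24, 9.21 and 9.07 in ELT3-245, against 9.95, 9.93 and 9.86 in ELT3. In DMSO, they were 9.37, 9.39 and 9.54 in ELT3-245, against 9.91, 9.69 and 9.95 in ELT3. The groups did not overlap in either treatment, but the log2 difference in DMSO, -0.41 (95% interval -0.65 to -0.18; adjusted p = 0.0150), was under 1.5-fold. In rapamycin it was -0.74 (-0.98 to -0.51), or 1.67-fold (adjusted p = 0.000228).

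Pard6b, Prkci and Crb3 were not called. Pard6b encodes a PAR-6 protein and was dim, at log2 differences of -0.61 in DMSO (95% interval -1.13 to -0.09; adjusted p = 0.0974) and -0.67 in rapamycin (-1.19 to -0.14; adjusted p = 0.0644). Without ELT3-245 DMSO replicate 2 it was called lower in DMSO (-0.91, adjusted p = 0.00666) and in rapamycin (-0.67, adjusted p = 0.0160). Prkci, the atypical protein kinase C iota, was bright, with group means from 12.32 to 12.50, and its intervals of -0.36 to 0.10 in DMSO and -0.40 to 0.05 in rapamycin stayed within 1.5-fold. Crb3, the epithelial Crumbs protein, had group means from 8.41 to 8.62 and intervals that reached past 1.5-fold. Ybx3, the Y-box transcription factor ZONAB that ZO-1 binds, was bright in all groups (means 15.50 to 15.85), and its log2 difference of -0.30 in DMSO (95% interval -0.51 to -0.09; adjusted p = 0.0429) was under 1.5-fold.

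**Figure D2:**
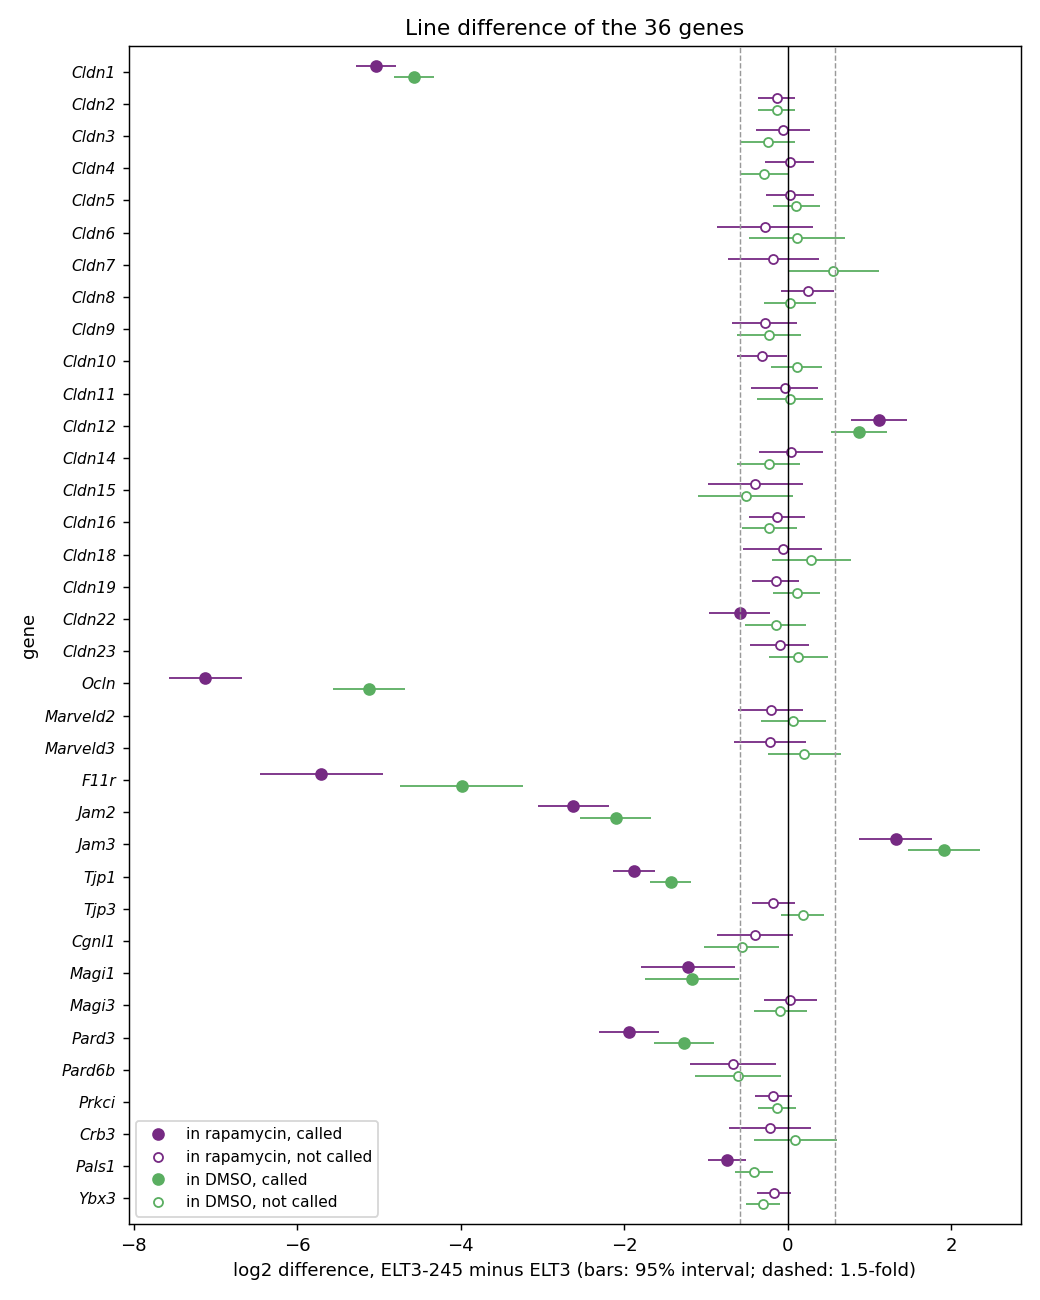
Log2 difference between ELT3-245 and ELT3 (x axis) for each of the 36 genes (y axis), in rapamycin and in DMSO, with 95% intervals from the limma fit. Filled points were called, open points were not, and dashed lines mark 1.5-fold. Most open points lie between the dashed lines, and Ocln, F11r and Cldn1 lie farthest to the left in both treatments, from -3.99 to -7.12.

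The line difference rested on a test that pools the spread over genes. With each gene's own spread (the methods' per-gene unequal-variance test with Benjamini-Hochberg adjustment), 4 genes were called lower in DMSO and 1 higher in each treatment, and F11r in rapamycin had an adjusted p of 0.0606. Exact permutation of 3 arrays against 3 cannot give a two-sided p under 0.1.

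Some epithelial markers also differed between the lines. Of 14 measured, ELT3-245 had 5 lower and 1 higher in DMSO, with 4 lower and 0 higher when both lines had rapamycin, beside the 14.9% and 16.8% of all probe sets called in either direction. The other 8 and 10 were not called, and the median log2 differences were -0.16 and -0.20. Pkp2, a desmosomal plakophilin, had a log2 difference of -4.03 in DMSO (adjusted p = 1.19e-10). Krt7 and Cdh1 were the other 2 lower in DMSO, St14 was the 1 higher, and the 4 in rapamycin were Pkp2, Krt8, Cdh3 and Esrp2. Cdh1, St14 and Esrp2 were under the array median on all 12 arrays, so their calls were read from dim signals. In DMSO, Cdh1 and St14 were just past the limit, at 1.53-fold and 1.54-fold. Krt8, a keratin of simple epithelia, had -3.75 (adjusted p = 1.98e-09), and Cdh3, P-cadherin, had -3.56 (adjusted p = 5.13e-10). The summed signal of the 14 markers, as log2, was 12.25 to 12.43 in ELT3-245 against 15.87 to 16.03 in ELT3 in DMSO, and 12.70 to 12.90 in ELT3-245 against 16.16 to 16.35 in ELT3 in rapamycin. Cdh3 and Pkp2, the brightest of the 14 in ELT3, made up most of this sum there. Of 8 fibroblast markers, 6 were higher in ELT3-245 in each treatment and 0 lower. Lum, Dcn, Fap and Pdgfra had log2 differences of 6.46, 5.92, 5.12 and 3.83 in DMSO. In ELT3 in DMSO, Lum, Dcn and Fap averaged 4.40, 6.47 and 4.75, in the dim range. The summed signal of the 8 was 18.07 to 18.17 in ELT3-245 against 17.83 to 17.85 in ELT3 in DMSO. Col1a2, the brightest of the 8, weighed most in this sum and was not called, at 17.30 in ELT3-245 and 17.24 in ELT3 in DMSO. Of 9 endothelial markers, 7 were under the array median on all 12 arrays, Pecam1, Cdh5 and Vwf among them. Kdr, a receptor for VEGF, was an exception, at 13.50 in ELT3-245 and 6.27 in ELT3 in DMSO, a log2 difference of 7.22 (adjusted p = 1.58e-10), and 6.25 in rapamycin. Tek, the receptor TIE2, was lower in ELT3-245, at -1.57 in DMSO and -1.60 in rapamycin, and Pecam1 was lower in rapamycin, at -0.88. The summed endothelial signal, which in ELT3-245 was mostly Kdr, was 13.36 to 13.66 in ELT3-245 against 8.42 to 8.55 in ELT3 in DMSO. Of 8 leukocyte markers, 2 were higher in ELT3-245 in DMSO, Cd3e and Cd68, and 1 was lower, Cd14, while Ptprc (CD45) was under the array median on all 12 arrays. Cd3e, a CD3 chain of the T cell receptor complex, was 5.95 higher in ELT3-245 in DMSO (adjusted p = 4.55e-09) and 6.09 higher in rapamycin.

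Smooth muscle markers differed as well, with 5 of 10 lower and 3 higher in ELT3-245 in DMSO and 5 lower and 0 higher in rapamycin. The shares called were 80% and 50%, against 14.9% and 16.8% of all probe sets. Tagln, an actin-binding protein, was lower at -3.10 in DMSO (adjusted p = 1.77e-10), and Pgr, the progesterone receptor, at -1.35 (adjusted p = 2.18e-05). Actg2, Cnn1 and Acta2 were lower at -0.92, -0.90 and -0.66, and the 5 lower in rapamycin were these same genes. Lmod1, Des and Myocd were the 3 higher in DMSO, at 1.46, 0.95 and 0.66, Myocd from dim signals. In DMSO, the summed smooth muscle signal was 16.96 to 17.06 in ELT3-245 against 16.85 to 16.90 in ELT3. Des was the brightest of the 10 in both lines there, with means of 16.65 in ELT3-245 and 15.70 in ELT3. The sum in DMSO thus follows Des more than the 5 lower genes. In rapamycin, the sum was 17.24 to 17.43 in ELT3-245 against 18.06 to 18.15 in ELT3. The part of these marker lists in the line difference of the junction genes was not tested, and fewer cells with a transcript and less of it per cell cannot be told apart in such cultures.

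Regulators of junction genes were counted from a separate list, of which 17 of 21 were measured. In DMSO, 5 were higher in ELT3-245 and 1 was lower (35.3% called, against 14.9% of all probe sets), and in rapamycin 6 were higher and 3 lower (52.9%, against 16.8%). The 5 were Snai2 and Snai1 (Slug and Snail), Twist1, Twist2 and Zeb2, which encode transcriptional repressors or bHLH factors of mesenchymal cells, with log2 differences in DMSO from 0.76 to 2.78. The 1 lower was Klf4, an epithelial zinc finger factor, at -2.13 (adjusted p = 3.19e-05). In rapamycin, Klf5 was higher as well, and Klf4, Hnf4a and Esrp2 were lower, the last 2 from dim signals. These values stand beside the junction genes as measurements, and no link between them was tested.

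Partners of the 36 genes that are not on the list, such as further polarity proteins, angiomotins and small claudin relatives, were measured for 39 of 52. In DMSO, 2 were higher and 6 lower in ELT3-245 (20.5% called, against 14.9% of all probe sets), and in rapamycin 4 were higher and 5 lower (23.1%, against 16.8%), shares not far above those of all probe sets. The lower ones with the largest differences in DMSO were Crb2, a Crumbs protein, at -3.19 (adjusted p = 4.85e-06), and Rab3b, a vesicle GTPase, at -2.03 (adjusted p = 1.84e-06). Afdn, the actin-binding afadin of nectin contacts, followed at -1.81 (adjusted p = 0.000146), and Amotl2, an angiomotin, at -1.53 (adjusted p = 4.58e-07). The 2 higher ones were Tiam1, an exchange factor for Rac that binds PAR-3, at 1.03 (adjusted p = 0.000885), and Lin7c, a partner of PALS1, at 0.61 (adjusted p = 0.0114). In rapamycin, Tiam1, Lin7c, Pals2 and Tjap1 were the 4 higher, and Crb2, Rab3b, Amotl2, Llgl2 and Clmp the 5 lower.

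The next question was what rapamycin did in each line. In ELT3-245, 0 of the 36 genes were called in either direction, against 5.65% of all probe sets called higher and 4.98% called lower (10.6% in all). At an unadjusted p under 0.05 from limma there were 3 of the 36, Tjp1, Cldn1 and Pals1, against 6662 of all 23188 probe sets. With the methods' per-gene unequal-variance test 0 were called after adjustment. In ELT3, 6 of the 36 were higher with rapamycin and 0 lower, against 7.47% and 8.45% of all probe sets (15.9% in all). The 6 were F11r, Ocln, Tjp1, Jam2, Cldn1 and Pard3, each of them also a gene that was lower in ELT3-245. The line differences and the responses share arrays, so the overlap of these genes was not tested. The median log2 change of the 36 genes was -0.05 in ELT3-245, against -0.02 over all probe sets, and 0.12 in ELT3, against 0.02.

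In ELT3, F11r averaged 11.63 ± 0.06 with rapamycin and 9.71 ± 0.39 with DMSO (SD, n = 3 each). Its log2 change was 1.92 (95% interval 1.17 to 2.67), or 3.78-fold (adjusted p = 0.00133 from limma). Ocln averaged 12.84 ± 0.17 with rapamycin and 11.10 ± 0.02 with DMSO in ELT3, 3.34-fold higher (95% interval 1.30 to 2.18 on the log2 scale). Every rapamycin array of both genes lay above every DMSO array of ELT3. Of the 36 genes, 8 were higher on all rapamycin arrays than on all DMSO arrays of ELT3 and 4 were lower, against 18.3% and 19.4% of all probe sets. The changes of the other 4 called genes were smaller. Tjp1 averaged 14.81 ± 0.04 with rapamycin and 13.85 ± 0.11 with DMSO, a log2 change of 0.96 (95% interval 0.71 to 1.22; adjusted p = 7.97e-05). Jam2 averaged 8.29 ± 0.04 with rapamycin and 7.40 ± 0.05 with DMSO, a log2 change of 0.89 (0.45 to 1.33; adjusted p = 0.00577). These groups, too, were apart on every array.

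Cldn1 in ELT3 averaged 14.86 ± 0.18 with rapamycin and 14.12 ± 0.09 with DMSO, a log2 change of 0.74 (95% interval 0.50 to 0.99; adjusted p = 0.000439). Pard3 averaged 11.77 ± 0.12 with rapamycin and 11.19 ± 0.30 with DMSO, a log2 change of 0.59 (0.22 to 0.95; adjusted p = 0.0213). Both passed in the fit of all arrays, but Pard3 was close to the 1.5-fold limit. It was no longer called without ELT3 DMSO replicate 2 (0.42, adjusted p = 0.0887) or without ELT3 rapamycin replicate 1 (0.52, adjusted p = 0.0734). With the methods' per-gene unequal-variance test 3 of the 6 were called, and F11r (adjusted p = 0.0858), Cldn1 (0.0708) and Pard3 (0.219) were not.

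In ELT3-245, the same 6 genes had log2 changes from -0.26 to 0.51. Tjp1 averaged 12.93 ± 0.13 with rapamycin and 12.42 ± 0.16 with DMSO, and its change of 0.51 (95% interval 0.26 to 0.76; adjusted p = 0.00915) passed the p threshold at 1.42-fold. Cldn1 averaged 9.83 ± 0.03 with rapamycin and 9.55 ± 0.09 with DMSO, a change of 0.28 (0.03 to 0.53; adjusted p = 0.125). On every array these 2 genes were higher with rapamycin than with DMSO. Of the 36 genes, 4 were higher on all rapamycin arrays than on all DMSO arrays of ELT3-245 and 4 were lower, against 17.1% and 17.8% of all probe sets (34.9% in all). Without ELT3-245 DMSO replicate 1, Tjp1 (0.60, adjusted p = 0.00814) and Magi1 (0.79, adjusted p = 0.0136) were called higher, in place of 0 genes.

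The changes of the remaining 3 in ELT3-245, F11r, Ocln and Jam2, were read from signals under the array median, except for F11r on rapamycin replicate 3, which was just above it. F11r averaged 5.92 ± 0.82 with rapamycin and 5.72 ± 0.40 with DMSO, with an interval of the change of -0.55 to 0.95. Jam2 averaged 5.67 ± 0.18 with rapamycin and 5.30 ± 0.51 with DMSO, with an interval of -0.07 to 0.81. The arrays of the 2 treatments overlapped for both genes. Ocln averaged 5.72 ± 0.30 with rapamycin and 5.98 ± 0.42 with DMSO, with an interval of -0.70 to 0.18, again with overlap. Pard3, which was bright in ELT3-245, had an interval of -0.45 to 0.28 and was within 1.5-fold.

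**Figure D3:**
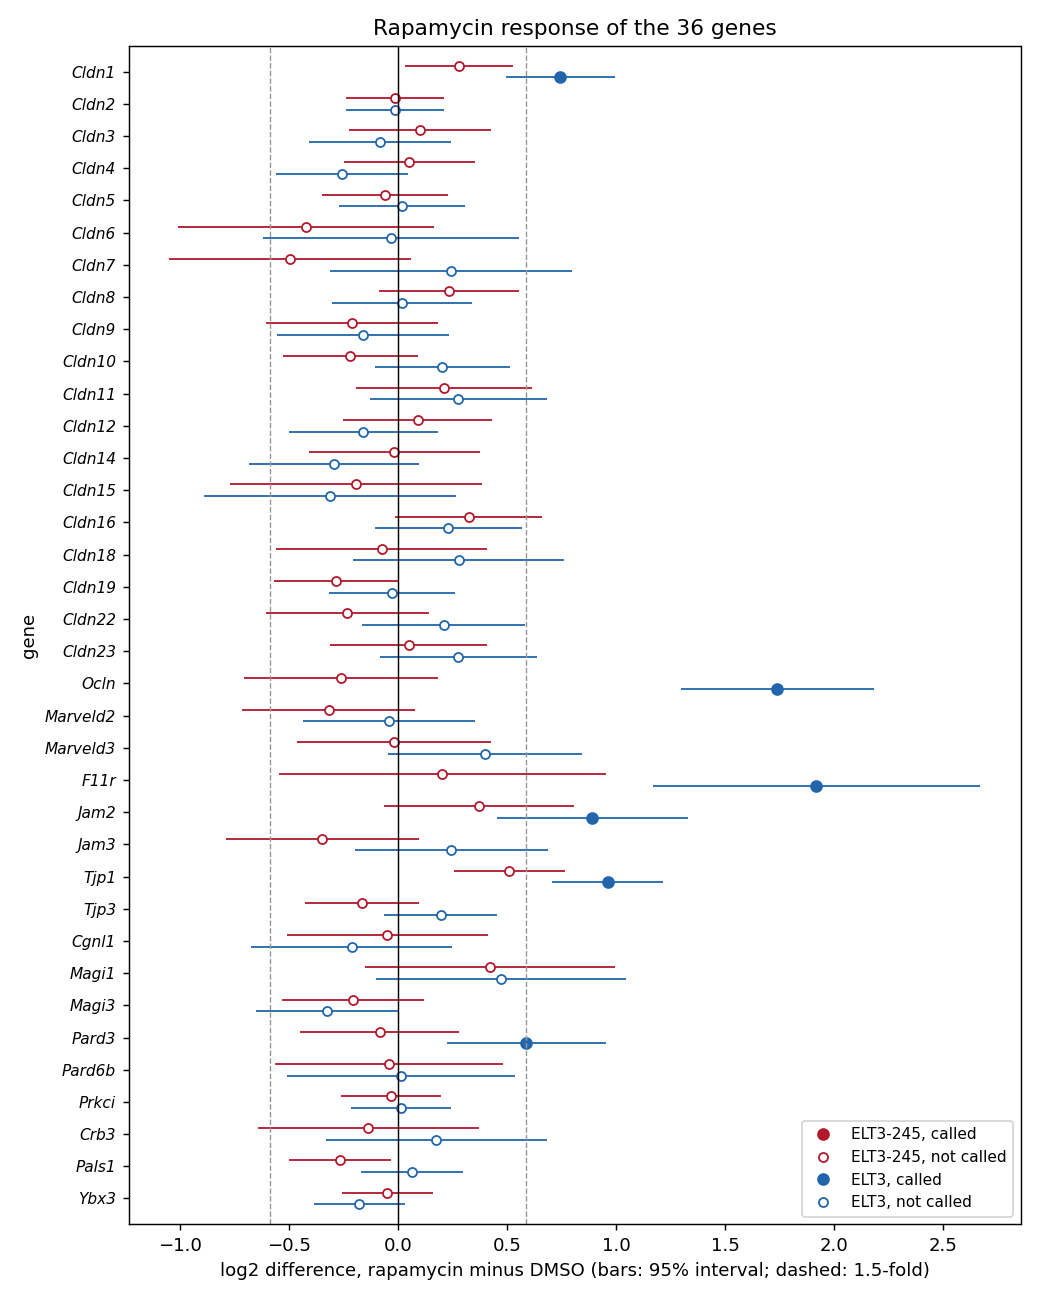
Log2 difference between rapamycin and DMSO (x axis) for each of the 36 genes (y axis), in ELT3-245 and in ELT3, with 95% intervals from the limma fit. Filled points were called, open points were not, and dashed lines mark 1.5-fold. The 6 filled points are all of ELT3 and lie between 0.59 and 1.92, and none of the 36 genes has a filled point for ELT3-245.

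Whether the lines responded differently was tested by the interaction of line and treatment. Of the 36 genes, 1 was called, lower in ELT3-245, and 0 were called higher, against 2.06% and 2.17% of all probe sets (4.23% in all). It was Ocln, whose response in ELT3-245 minus that in ELT3 was -2.00 (95% interval -2.63 to -1.37; adjusted p = 0.00297 from limma). Since Ocln was under the array median on all 6 ELT3-245 arrays, a change among such dim signals could hardly be read there, and the difference is mostly the increase of 1.74 in ELT3. The call was lost with limma treat against 1.5-fold (adjusted p = 0.0566) and with the methods' per-gene unequal-variance test (adjusted p = 0.101). F11r had a nearly equal difference of -1.71 with a wider interval (-2.77 to -0.65; adjusted p = 0.0729) and was not called. Without ELT3-245 rapamycin replicate 3, its highest array in that line, F11r was called at -2.17 (adjusted p = 0.00934). Jam2, at -0.52 (95% interval -1.14 to 0.10; adjusted p = 0.357), was called without ELT3-245 DMSO replicate 2, its lowest array, at -0.80 (adjusted p = 0.0378).

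For Tjp1, Cldn1 and Pard3, which were measured well above the array median in both lines, the differences of responses were -0.45 (95% interval -0.81 to -0.09; adjusted p = 0.159), -0.47 (-0.82 to -0.11; adjusted p = 0.138) and -0.67 (-1.19 to -0.16; adjusted p = 0.143). A difference of response between the lines was therefore not shown for them. Over the 36 genes the median was -0.24, against -0.01 over all probe sets. At an unadjusted p under 0.05 from limma there were 5 of the 36 genes, Ocln, F11r, Tjp1, Cldn1 and Pard3. Over all probe sets there were 4385 of 23188, so the share in the list was not above that of all probe sets.

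The epithelial markers gave 2 called higher with rapamycin in ELT3, Krt8 at 2.13 (adjusted p = 1.37e-06) and Pkp2 at 0.81 (adjusted p = 0.000196), and 1 in ELT3-245, Pkp2 at 1.02 (adjusted p = 6.49e-05). The interaction was called for 1 of the 14, Krt8, at -1.79 (adjusted p = 0.000846). The shares of the 14 called were 14.3% in ELT3, 7.14% in ELT3-245 and 7.14% for the interaction. Those of all probe sets were 15.9%, 10.6% and 4.23%. Of 10 smooth muscle markers, 5 were higher with rapamycin in ELT3 and 0 lower, Actg2 at 2.30, Tagln at 1.67, Acta2 at 1.57, Lmod1 at 0.83 and Des at 0.60. In ELT3-245 only Tagln was called of the 10, at 2.48 (adjusted p = 5.31e-08). The interaction was called lower for Actg2 (-1.82, adjusted p = 0.000852) and Acta2 (-1.02, adjusted p = 0.00440) and higher for Tagln (0.81, adjusted p = 0.00507). The shares of the 10 called were 50% in ELT3, 10% in ELT3-245 and 30% for the interaction. The summed smooth muscle signal in ELT3 was 18.06 to 18.15 with rapamycin and 16.85 to 16.90 with DMSO, and its part in the response of the junction genes was not tested. Of the 39 partners, 3 were higher and 2 lower with rapamycin in ELT3 (12.8% called, against 15.9% of all probe sets), and 3 were higher and 1 lower in ELT3-245 (10.3%, against 10.6%). Rab3b went apart between the lines, at -0.65 in ELT3-245 (adjusted p = 0.0183) and 0.71 in ELT3 (adjusted p = 0.00822), with an interaction of -1.36 (adjusted p = 0.00934). Mpp7, a membrane-associated guanylate kinase of the polarity complexes, was the 1 partner with a called interaction above 0, at 1.17 (adjusted p = 0.0254). Mpp7 and Crb2 were the 2 lower with rapamycin in ELT3, at -0.61 and -1.46 (adjusted p = 0.0253 and 0.00292 from limma). The interaction of Crb2, at 1.34, was not called (adjusted p = 0.0999 from limma). Amotl2 was higher with rapamycin in both lines, at 1.37 in ELT3-245 (adjusted p = 6.03e-06) and 0.88 in ELT3 (adjusted p = 9.98e-05). Of the 17 regulators, 4 were higher with rapamycin in ELT3-245 and 0 lower (23.5% called, against 10.6%), and 0 were called in ELT3 (against 15.9%). The 4 were Cdx2, Klf5, Klf4 and Snai1, at 1.01, 0.85, 0.82 and 0.75. The interaction was called for Klf5, at 1.35 (adjusted p = 0.00200 from limma). A link of the regulators to the junction genes was not tested.

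**Figure D4:**
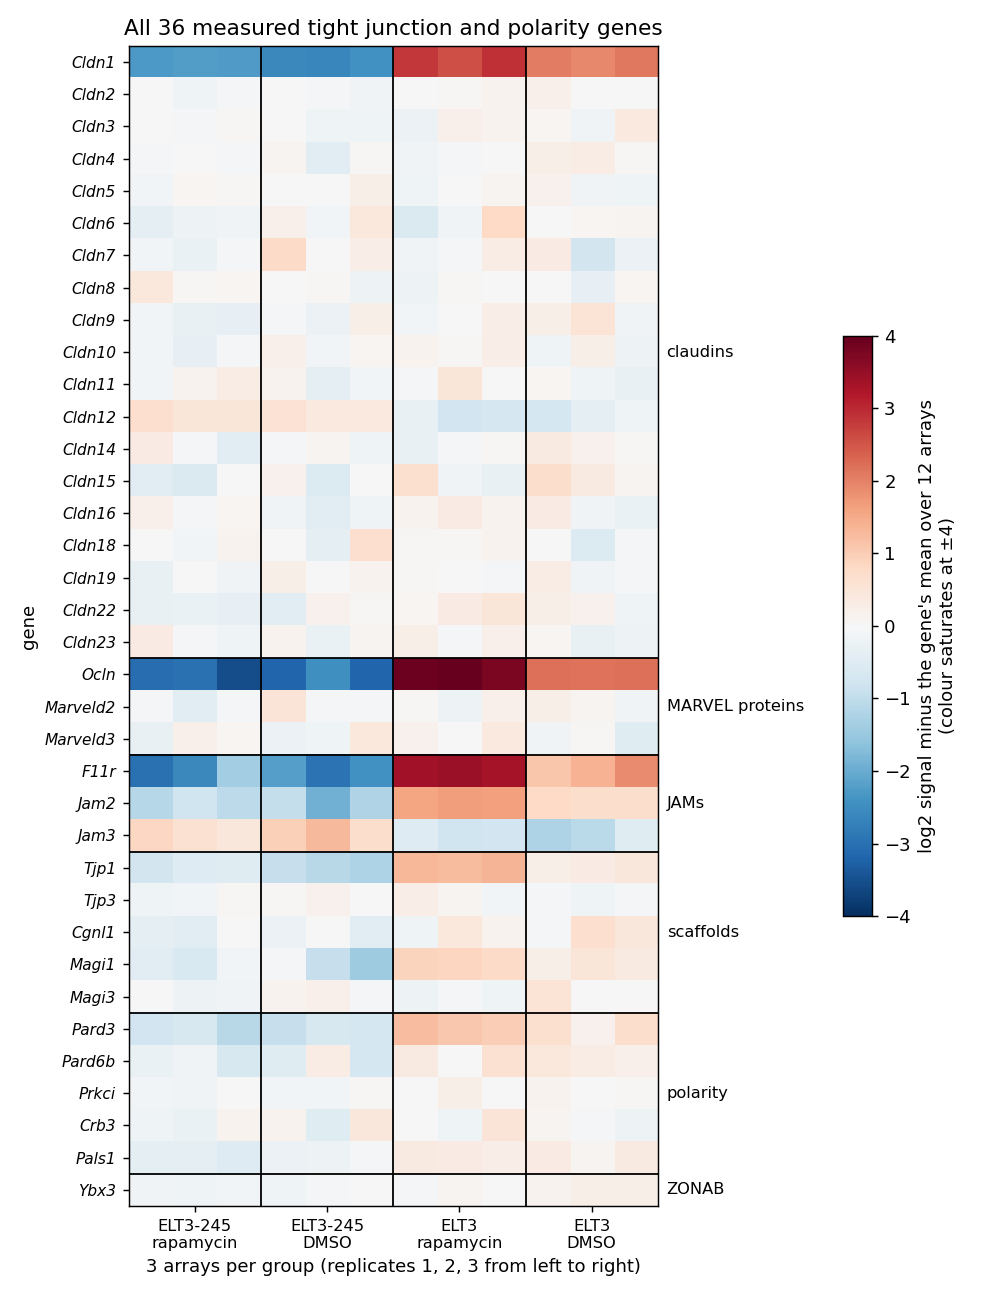
Log2 signal of each of the 36 genes minus the gene's mean over 12 arrays (colour, which saturates at 4 on either side), by array (x axis, 3 arrays per group) and grouped by role (y axis). The claudins other than Cldn1 show little colour. Ocln, Cldn1 and F11r are blue in ELT3-245 and red in ELT3, and the red is deeper with rapamycin than with DMSO.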

How the data were processed

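Total RNA of 12 samples was hybridised to rat Clariom S arrays. The authors made log2 signals with RMA, as deposited, with 1 value per probe set and array; no version, aligner or genome build behind the array is given in the sources used here. Genes were named by the symbols of the array's annotation, and 8139 probe sets without a symbol were kept in every test. Groups were compared with limma 3.58.1 in R 4.3.3, in 1 model with a mean for each of 4 groups (residual degrees of freedom 8, prior 3.91), with 5 comparisons and no array left out. The fit was tested on simulated data. The number of arrays limits the precision. The members, the gene lists, the tests and the rule for named genes were chosen with earlier results of these data known. All members were named; from other lists, the called genes with the largest line differences in DMSO were, and further ones named beside small counts were chosen after their values were seen. Alternatives were quantile normalization, median centring, an intensity trend with robust moderation, the replicate number as a block, leaving out dim probe sets, only the groups compared, a 2-fold limit, limma treat, a per-gene unequal-variance test and leaving out each array. Figures were drawn with Matplotlib 3.10.9, and tables made with pandas 2.3.3 and NumPy 2.4.6 under Python 3.11.15.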

Additional observations from a re-analysis of the deposited data

Results flagged for a closer look

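The rapamycin response of Ocln differed between the lines by the test of the difference itself, with a response in ELT3-245 minus that in ELT3 of -2.00 on the log2 scale (adjusted p = 0.00297 from limma). The response was -0.26 in ELT3-245, whose 6 arrays all lay under the array medians so that a change there could hardly be read, and 1.74 in ELT3, where every rapamycin array was higher than every DMSO array.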

How the results depend on the processing

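Of 27 called results of single genes, 12 stayed called in every alternative that tested them, 15 were lost in at least 1 and 0 changed direction. Without 1 array, 2 were lost. In DMSO, the 2 genes called higher in ELT3-245 became 1 at a 2-fold limit, 1 with limma treat and 1 with the per-gene unequal-variance test, which called 4 lower genes in place of 7 there, and 1 higher gene in place of 2 in rapamycin. The 9 lower genes in rapamycin became 6 with the per-gene test, 6 with limma treat, 7 at a 2-fold limit, 7 without dim probe sets and 8 with quantile normalization. The 6 genes higher with rapamycin in ELT3 became 2 at a 2-fold limit, 2 with limma treat, 3 with the per-gene test and 5 with median centring or without dim probe sets. Without dim probe sets, Jam2 and Cldn22 were not tested, so their absence from these counts is not a lost call. The interaction was called for 2 genes in place of 1 with an intensity trend and robust moderation or without dim probe sets (Ocln and F11r, adjusted p of F11r 0.0123 and 0.0311), and for 0 with limma treat or the per-gene test. Leaving out each array in turn gave 2 to 3 higher and 7 to 8 lower genes in DMSO and 2 to 2 and 8 to 10 in rapamycin. It gave 0 to 2 higher with rapamycin in ELT3-245 (2 without ELT3-245 DMSO replicate 1), 5 to 6 in ELT3, and 1 to 2 lower interactions (2 without ELT3-245 DMSO replicate 2 or ELT3-245 rapamycin replicate 3). Over all probe sets, limma treat called 1471, 1522, 491, 902 and 72, and the per-gene test 1700, 1771, 809, 1339 and 165, in place of 3445, 3890, 2465, 3692 and 981 for the line difference in DMSO and in rapamycin, the rapamycin response of ELT3-245 and of ELT3, and the interaction, and leaving out 1 array gave 534 to 893 for the interaction. Pard6b was gained as lower in rapamycin under 5 alternatives (adjusted p = 0.0160 to 0.0459) and in DMSO without ELT3-245 DMSO replicate 2, and Cldn7 and Cgnl1 were gained in DMSO without ELT3 DMSO replicate 1. The cause of these shifts was not tested. Deviations of arrays with the same replicate number correlated at -0.12 to 0.22, so the numbers were not taken to pair samples, and the fit with the replicate number as a block gave the same counts, with 7 lower genes in DMSO, 9 in rapamycin, 6 higher with rapamycin in ELT3 and 1 interaction. A mean over several probe sets was not run, since each gene had 1. Signals under the array median, with no detection calls, limit what can be read for 19 of the 36 genes.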
